A study of Danio rerio with 4 samples.

Results

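Epithelial surface genes and the epithelial transcription factor gene elf3 were followed as a set of 6 zebrafish genes, epcam, tm4sf4, cd9b, spint2, lad1 and elf3, out of 8793 genes that had a probe set of their own on the array. The members were listed by name, and the list was drawn up after their difference between the 2 populations of the study had been seen. Their values are therefore a description and carry no test. All probe sets annotated to the 6 genes were taken, 9 in all, of which epcam, spint2 and tm4sf4 had 2 each and the other genes 1 each. No member was annotated to a probe set shared with another gene.

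Kidney, the blood-forming organ of the zebrafish, was taken from adult fish. No strain, genotype or treatment is given in the sources used here. Cells in the lymphoid gate of the cytometer, which have low forward and side scatter, were sorted into a side population (zSP) and a main population (zMP) by how brightly Hoechst stained them. This dye binds DNA and is exported by some cells, which leaves the side population dim. RNA of 20 fish from 3 sorts was pooled within each population and divided into 2 aliquots, each amplified, labelled and hybridized on an array of its own. Both arrays of a population thus show 1 pool. Their spread is technical, and no biological replicate stands behind a difference.

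Epithelial cells adhere to each other and to the layer beneath them through surface proteins, several of which are encoded by these genes. EPCAM is a transmembrane molecule through which epithelial cells stick to one another. CD9 is a tetraspanin, a protein that crosses the membrane several times and gathers other membrane proteins around it, and in mammals it is also found on platelets and leukocytes. TM4SF4 crosses the membrane in a similar way but belongs to a separate family. SPINT2 is a membrane-bound inhibitor with Kunitz domains that in mammals blocks trypsin-like proteases of the epithelial surface, matriptase among them. Ladinin, the product of LAD1, is a protein of the anchoring filaments beneath the human epidermis. ELF3 is an ETS-family transcription factor expressed in mammals mainly in epithelia.

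The values are the authors' deposited log2 expression values. Array medians lay between 4.05 and 4.15. Across 15502 probe sets, Pearson's r was 0.943 for the pair of zSP arrays, 0.952 for the pair of zMP arrays and 0.868 to 0.875 for arrays of different pools. It is a correlation across probe sets, which are no replicates of each other. A blank range was taken from 49 control probe sets for sequences that zebrafish cells do not transcribe. Its top, the highest group mean among them, was 6.15, set by an EGFP control, and 5.24 without that control. A value inside this range is no evidence of the transcript. Leukocyte markers were bright in both pools: 12 of the 15 measured had means above the blank range in zSP and 12 in zMP, the pan-leukocyte phosphatase gene ptprc with means of 8.89 and 9.53.

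All 6 genes were higher in zSP than in zMP. Each zSP array was set against each zMP array, and a gene was called where these 4 differences all reached 1 on the log2 scale, or 2-fold, in one direction. All 6 genes passed. Over all genes, 7.85% were called higher in zSP. Since the members were chosen on this contrast, the comparison of these shares shows nothing further. The median difference of the 6 genes was 6.09, against -0.20 over all genes. In pooled cells, a larger share of cells with a transcript and more of it per cell cannot be told apart.

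**Figure D1:**
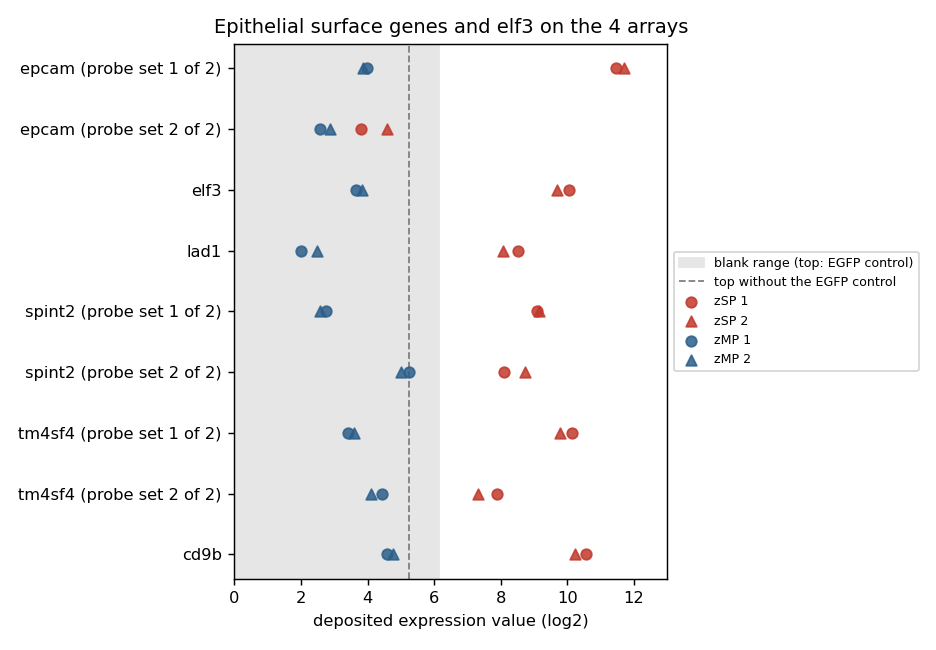
Deposited log2 value (x axis) of each of the 9 probe sets (rows) on the 4 arrays, with red for zSP, blue for zMP, circles for replicate 1 and triangles for replicate 2. The grey band is the blank range up to 6.15 and the dashed line its top of 5.24 without the EGFP control. In every row but the second probe set of epcam, both red symbols lie beyond the band and both blue symbols within it.

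The adhesion gene epcam (NCBI gene 406454), in its first probe set, read 11.44 and 11.70 on the zSP arrays and 3.98 and 3.87 on the zMP arrays. The pools lay far apart and the aliquots of each close together. The difference was 7.65, with 7.47 to 7.83 over the 4 pairs of arrays, and it ranked 1 among the 8793 genes. This set, too, is left out when probe sets with shared-sequence endings (_a_at, _s_at, _x_at) are removed, and epcam then has none. Because both zMP values lay within the blank range, this difference stands against background fluorescence. Against the top of the blank range on each zMP array, epcam was at least 42.9-fold higher in zSP, or at least 79.5-fold without the EGFP control.

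The second probe set of epcam read 3.80 and 4.59 in zSP and 2.56 and 2.87 in zMP. All of these values lay within the blank range, so that no fold is given. Its difference of 1.48 (0.93 to 2.02) had the same direction but was not called. The ending of its name, _x_at, marks a set in which some probes also match other sequences. With both probe sets averaged, the difference of epcam was 4.56.

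Among the multi-pass membrane genes, cd9b (gene 406737) read 10.54 and 10.22 in zSP and 4.58 and 4.76 in zMP. The difference was 5.71 (5.45 to 5.97), with rank 14. Both zMP values lay within the blank range, and the gene was at least 18.8-fold higher in zSP.

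For tm4sf4 (gene 445095), the first probe set read 10.13 and 9.77 in zSP and 3.42 and 3.58 in zMP. The second set read 7.89 and 7.33 in zSP and 4.42 and 4.11 in zMP. Both sets separated the pools on every pair of arrays, but by unlike amounts. The first gave a difference of 6.45 (6.19 to 6.71) and the second 3.34 (2.90 to 3.78). The lower bounds on the fold were 14.0 and 2.76, respectively.

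The protease inhibitor gene spint2 (gene 562009) was likewise measured by a pair of probe sets. The first read 9.08 and 9.15 in zSP and 2.76 and 2.56 in zMP. The second read 8.10 and 8.72 in zSP and 5.25 and 4.998 in zMP. The zSP values lay above the blank range for both sets, and the zMP values of the second came closest to its top among all member probe sets. The differences were 6.46 (6.32 to 6.59) and 3.29 (2.85 to 3.72), with bounds of at least 7.83-fold and 4.79-fold. The second set stands for the gene in gene counts because its mean over the 4 arrays is the higher. Its difference ranked 150, a place that rests on this choice of probe set. As for the other members, the rank also depends on a zMP value within the blank range.

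The ladinin gene lad1 (gene 558327) read 8.52 and 8.06 in zSP and 2.00 and 2.49 in zMP. The difference was 6.05 (5.58 to 6.52). Its zMP mean of 2.24 was deep within the blank range, so that the measured difference rests on background, and the bound was at least 4.43-fold.

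The transcription factor gene elf3 (gene 560869) read 10.03 and 9.70 in zSP and 3.66 and 3.82 in zMP. The difference was 6.12 (5.88 to 6.37), with rank 9, and the bound was at least 13.2-fold.

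**Figure D2:**
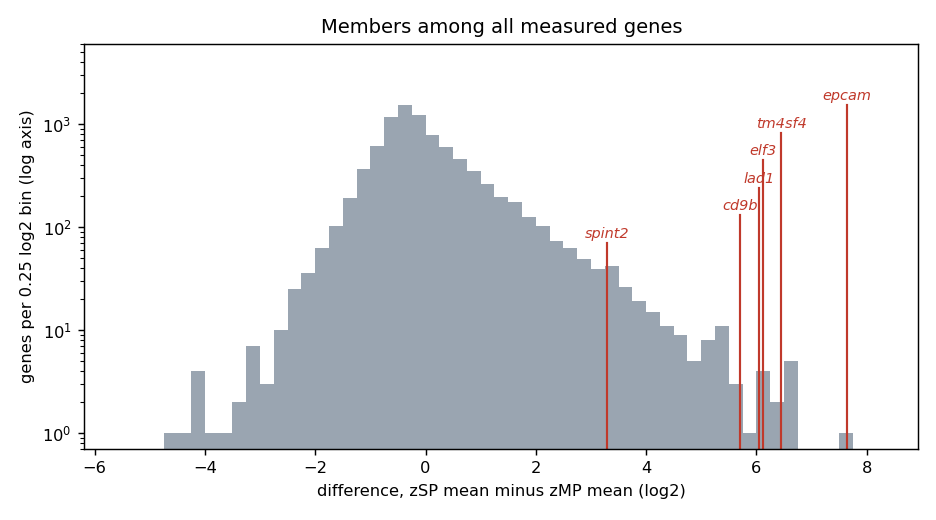
Number of genes (y axis, log scale) by difference between the zSP and zMP means on the log2 scale (x axis), over all 8793 genes, with the 6 members marked in red at heights chosen for legibility. epcam lies at the far right at 7.65, tm4sf4, elf3, lad1 and cd9b between 5.71 and 6.45, and spint2 at 3.29.

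Aliquots of a pool differed less than the pools. Over the 9 probe sets, the zSP arrays differed by 0.067 to 0.79 and the zMP arrays by 0.10 to 0.48. The zSP gap of 0.79 belonged to the second probe set of epcam, whose difference between the pools was 1.48. The median absolute difference over all probe sets was 0.30 for zSP and 0.25 for zMP. Of the members' 9 probe sets, 8 passed the call towards zSP, and all 8 were above the blank range on both zSP arrays. None of the 9 was above it on a zMP array. The second probe set of spint2, at 5.25 on zMP replicate 1, just passed the top of 5.24 without the EGFP control. Among all probe sets, 6.65% were called higher in zSP.

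The 3 members with more than 1 probe set gave unlike differences between them, with a span of 6.17 for epcam, 3.17 for spint2 and 3.11 for tm4sf4. Over the 1539 genes with at least 2 probe sets, the median span was 0.54, and over the 106 of these that were called higher in zSP it was 2.40. In 20 of those 106 genes, or 18.9%, every probe set was called higher, as for spint2 and tm4sf4. Which transcripts the probe sets of a gene detect was not tested, since probe sequences were not used here.

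The 49 blank controls shifted by a median of -0.38 between the pools, opposite in sign to the members. In the GAPDH controls the 3′ probe set exceeded the 5′ one by 3.94 in zSP and by 3.09 in zMP. The part of RNA quality or copy length in the members' differences was not tested.

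Relatives of the multi-pass genes were called at shares near those over all genes, 7.85% towards zSP and 2.89% towards zMP. Of 22 other tetraspanin and TM4SF-family genes measured, 2 were called higher in zSP, 1 was called higher in zMP and 19 were not called, with a median difference of 0.10. The TM4SF-family gene tm4sf21a read 9.40 and 9.62 in zSP and 4.44 and 4.46 in zMP, a difference of 5.06 (4.94 to 5.18). The tetraspanin gene tspan34b read 6.73 and 6.49 against 1.62 and 2.02, a difference of 4.79 (4.47 to 5.11). Both had zMP means within the blank range. The tetraspanin gene tspan2a went the other way, with 7.36 and 6.26 in zSP and 9.42 and 9.70 in zMP, a difference of -2.75 (-3.44 to -2.06). Without zSP replicate 2, 4 of the 22 genes were called higher in zSP, against 12.5% of all genes. Those called higher in zMP numbered 3 without zSP replicate 1 and 2 without zMP replicate 1. The shares over all genes were then 6.7% and 6.72%. Picked after their values were seen, the widely expressed tetraspanin genes cd63 and cd81a differed by 0.46 and -0.06, with every group mean above the blank range.

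The protease list holds targets that SPINT proteins block in mammals and further inhibitors. Besides spint2, 17 of its genes were measured. Towards zSP 6 of them were called, or 35.3% against 7.85% over all genes. Towards zMP none was called, against 2.89% over all genes, and the median difference was -0.15. The list holds st14a, a zebrafish matriptase gene, with 5.29 and 6.30 in zSP and 2.07 and 2.23 in zMP. Its difference was 3.65 (3.07 to 4.23), but both means lay within the blank range. The zSP mean of 5.80 passed the top of 5.24 without the EGFP control. The related Kunitz inhibitor gene spint1a was higher by 3.01 (2.14 to 3.89), with a zSP mean of 6.40 that just passed the blank range. The amyloid precursor relative aplp2, which in mammals can carry a Kunitz domain, was higher by 3.58 (3.33 to 3.83) and by 1.35 with its probe sets averaged. The other probe set of aplp2 was lower in zSP. The largest difference belonged to serpinh1b, 4.62 (4.29 to 4.94), whose product is a collagen chaperone of the serpin family and not a protease inhibitor.

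In the attachment apparatus to which ladinin belongs, none of 12 hemidesmosome, plakin and basement membrane genes besides lad1 was called. The shares over all genes were 7.85% towards zSP and 2.89% towards zMP, and 0 of 12 genes lies near them. In neither pool did any of the 12 have a mean above 6.15. The zSP mean of krt5, 5.32, passed the top of 5.24 without the EGFP control. The median difference of the 12 genes was 0.03. The plakin gene ppl read 6.24 and 3.11 in zSP and 2.98 and 3.21 in zMP, so that its difference of 1.58 (-0.10 to 3.26) rested on 1 array. The basal keratin gene krt5 read 4.02 and 6.61 in zSP against 3.86 and 3.76, and its difference of 1.503 (0.15 to 2.85) rested on the other zSP array. Without zSP replicate 1 the difference of krt5 was 2.80, and without zSP replicate 2 that of ppl was 3.14, and each was then called.

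For ETS-family genes other than elf3, the calls were 2 of 17 towards zSP, or 11.8% against 7.85% over all genes. Towards zMP they were 0, against 2.89% over all genes. The median difference was -0.35. The gene etv5b, a target and effector of FGF signalling, read 6.62 and 6.95 in zSP and 3.12 and 2.93 in zMP, a difference of 3.77 (3.51 to 4.03). The epithelial ETS gene ehf, a close relative of elf3, was higher by 2.16 (2.02 to 2.31). Neither mean passed the blank range, although the zSP mean of 5.91 passed its top of 5.24 without the EGFP control. With 1 array left out, 1 to 3 of the 17 were called higher in zMP, against 6.05% to 6.72% of all genes.

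Of 23 other regulators of epithelial transcription and splicing, 7 were called, all of them higher in zSP, or 30.4% against 7.85% over all genes. At 3-fold it was 3, against 4.5% over all genes. Of the 23, 5 had zSP means above the blank range. Picked after their values were seen, grhl1 at 0.17, esrp1 at 0.60, esrp2 at 0.87, tp63 at -0.52 and klf4 at -0.26 were not called. The median difference of the 23 genes was 0.60. Among the largest were snai2 at 3.39 (3.12 to 3.66) and zeb2a at 2.56 (1.39 to 3.73), which in mammals repress epithelial genes. With their probe sets averaged the differences were 1.11 and 1.13, neither was called, and the list had 4 calls. The other probe set of zeb2a was lower in zSP. The tubule factor hnf1bb was higher by 3.24 (2.61 to 3.87) and the RNA-binding protein gene rbm47 by 2.85 (1.88 to 3.82). Neither gene passed the blank range in a pool. Their zSP means of 5.64 and 5.39 passed its top of 5.24 without the EGFP control, though rbm47 read 4.46 on zSP replicate 2.

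Of other epithelial adhesion and surface genes besides epcam, 25 were measured and 16 called, each of them higher in zSP. This was 64% against 7.85% over all genes, and the median difference was 1.94. The list is wider than its name, and its calls include the disulfide isomerase gene agr2 and the genes cnn2, anxa1a and s100a10b. The 9 genes not called ran from muc5.1 at -0.53 to llgl2 at 1.39. Of the 25, 15 had zSP means above the blank range and 4 had zMP means above it. The mucin gene muc13b read 7.72 and 8.22 in zSP and 2.32 and 2.75 in zMP, a difference of 5.43 (4.98 to 5.89). The junction adhesion gene f11r.1 was higher by 4.69 (3.56 to 5.82), with zMP arrays of 3.50 and 5.75. The E-cadherin gene cdh1 read 7.38 and 7.31 against 3.195 and 2.60, a difference of 4.45 (4.11 to 4.78). The desmoplakin gene dspa was higher by 4.31 (3.90 to 4.71), and by 1.99 with its probe sets averaged, the other set being lower in zSP. The zMP means of muc13b, f11r.1, cdh1 and dspa lay within the blank range. This list was chosen with earlier results of these arrays known, so that its count is not independent of them.

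**Figure D3:**
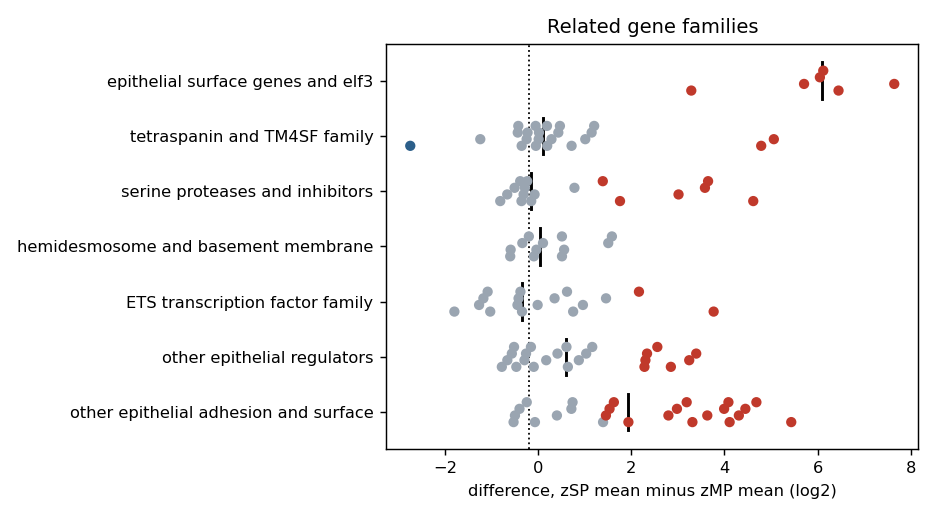
Difference between the zSP and zMP means on the log2 scale (x axis) for the genes of 7 lists (rows), each point a gene, red where called higher in zSP, blue where called higher in zMP and grey where not called. Members are left out of the other rows, black bars are list medians and the dotted line is the median of all genes, -0.20. The tetraspanin, hemidesmosome and ETS rows centre between -0.35 and 0.10, and the adhesion and surface row at 1.94.

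Markers of several cell types moved with the 6 genes. The gene lists overlap, with 10 genes on more than 1 of them, so that their shares are not independent. Of the kidney tubule calls below, cdh17 is also an adhesion and surface call, and hnf1bb and pax2a are regulator calls. The ionocyte and mucous cell call agr2 is an adhesion and surface call as well. The summed linear signal of the members was 7091 and 6908 on the zSP arrays and 105.0 and 105.4 on the zMP arrays, in arbitrary units. Of 16 kidney tubule markers, 8 were called higher in zSP, or 50% against 7.85% over all genes. At 3-fold it was 3 of the 16, against 4.5% over all genes. The other 8 were not called, among them slc12a3 at -0.93 and pax8 at -0.78, picked after their values were seen. The list reaches beyond the tubule to the podocyte genes podxl, called at 1.78, and wt1a, not called. The sums of this list were 3615 to 4014 in zSP and 1502 to 1528 in zMP. Linear sums weigh the brightest genes of a list most, and the share of each kidney tubule gene in them was not worked out. In 4 of the 16 a mean passed the blank range, cdh17, a cadherin of the tubule, among them with a difference of 4.11 (4.03 to 4.19). The sulfate transporter gene slc13a1 was higher by 3.31 (2.68 to 3.94) and the early kidney factor gene pax2a by 2.34 (1.15 to 3.52). Both genes had each mean within the blank range. Their zSP means of 5.47 and 5.76 passed its top of 5.24 without the EGFP control, but their values on zSP replicate 2, 4.89 and 4.58, did not. The other probe set of pax2a was lower in zSP. With probe sets averaged the call of pax2a ended at 0.95 and the list had 5 calls.

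Of 9 ionocyte and mucous cell markers, 3 were called higher in zSP, or 33.3% against 7.85% over all genes. Sums of the list were 820 to 960 in zSP and 223 to 246 in zMP. Of the 9 genes, 2 had zSP means above the blank range, agr2 and ca2, and the zSP sums rest largely on them. In zMP 1 mean, that of ca2, was above it. The secretory-cell disulfide isomerase gene agr2 was higher by 3.31 (3.02 to 3.60) and the carbonic anhydrase gene ca2 by 2.45 (2.14 to 2.76). The other probe set of ca2 was lower in zSP, and averaging its probe sets gave 0.88, which is no call. The sodium pump gene atp1a1a.5 was higher by 1.64 (1.41 to 1.87), at background in both pools. The mucin genes muc5.1 and muc5.2 and the ionocyte factor gene foxi1, picked after their values were seen, were within the blank range in both pools.

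Of 16 stroma and smooth muscle markers, 11 were called higher in zSP, or 68.75% against 7.85% over all genes. The other 5 were not called, namely col1a1a at 1.77, tagln2 at 1.13, myl9b at 0.84, fn1a at -0.32 and twist1a at -0.39. The sums of the list were 9620 to 9729 in zSP and 1132 to 1407 in zMP, and its median difference was 2.42. The gene tagln, of smooth muscle, had a difference of 6.47 (6.30 to 6.64), and the smooth muscle actin gene acta2 one of 5.46 (5.32 to 5.61). Their zMP means of 4.14 and 4.40 lay within the blank range. The secreted factor gene ccn1 was higher by 5.17 (4.26 to 6.08), or 1.66 over its 3 probe sets, of which 1 was called. The matrix gene postnb was higher by 3.71 (3.16 to 4.26), or by 1.82 with its probe sets averaged, and 1 of its 2 probe sets was called. Neither mean was beyond the blank range, although the zSP mean of 6.11 passed its top of 5.24 without the EGFP control.

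The summed signal of the leukocyte markers was 9840 to 10677 in zSP and 20185 to 21930 in zMP, and 4 of 15 were called higher in zMP. They included the actin regulator coro1a at -2.02 (-2.17 to -1.88), the actin nucleation regulator wasb at -1.50 (-1.68 to -1.32) and the antigen presentation chaperone cd74b at -1.17 (-1.24 to -1.10). The number was 9 without zSP replicate 2 and 7 without zMP replicate 1, where 6.35% and 6.72% of all genes were called. At 3-fold it was 1, where 61 of 8793 genes were called. The call of cd74b ended at -1.09 after median centring, -0.92 after a second quantile normalization and -0.74 after cyclic loess, and that of coro1a at -1.09 with its probe sets averaged. Over all genes, 2.89% were called higher in zMP by 2-fold in all 4 pairs. Of 9 red cell markers, ca2 was called higher in zSP, or 11.1% against 7.85% over all genes. The globin gene hbaa1 was called higher in zMP, at -4.24 (-4.52 to -3.97), with a zSP mean of 3.86 within the blank range. The globin gene hbba2, at -1.11, was not called. Sums of the red cell list were 523 to 589 in zSP and 410 to 442 in zMP. The gene ca2, which is also on the ionocyte list, made up 84.3% to 89.6% of the zSP sums and 17.7% to 24.4% of the zMP sums, and the median difference of the list was -0.39. With probe sets averaged, the call of ca2 ended at 0.88 and no red cell marker was called higher in zSP. Without zSP replicate 1, 2 red cell markers were called higher in zSP, against 11.9% of all genes. Without zMP replicate 1, 2 were called higher in zMP, against 6.72% of all genes. The part of other cell types in the members' differences was not tested.

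**Figure D4:**
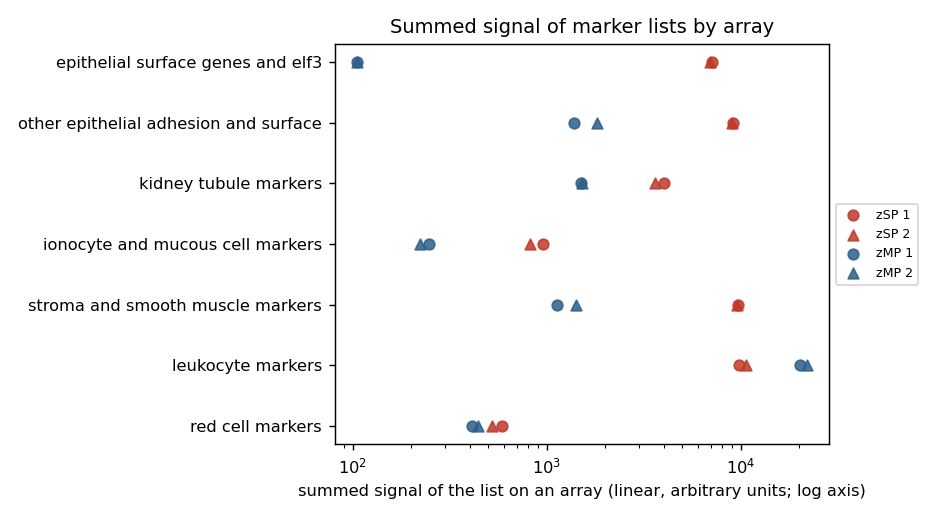
Summed linear signal (x axis, arbitrary units, log scale) of the 6 members, the other epithelial surface genes and 5 cell type marker lists (rows) on the 4 arrays, with red for zSP, blue for zMP, circles for replicate 1 and triangles for replicate 2. The members go from about 105.0 in zMP to 7091 and 6908 in zSP, and leukocyte markers are the row in which zMP is higher.

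The genes whose values were most like those of each member were found by Euclidean distance over the 4 log2 array values, among genes with a proper symbol. The measure takes in the brightness of the probe sets as well as the difference, and 4 arrays of 2 pools leave little to tell patterns apart. Tight-junction claudin genes were nearest for several members. For elf3 they were cldn3c at a distance of 0.31 and cldn3d at 0.58, for tm4sf4 cldn3d at 0.29 and cldn3c at 0.60, and for cd9b cldnb at 0.64 and tagln at 0.83. For lad1 the nearest were cldn7b at 0.88 and muc13b at 0.91. For epcam they were the adaptor gene hsh2d at 1.197 and tagln at 1.45. For spint2 they were the selenium carrier gene selenop at 0.37 and the transcriptional regulator gene ifrd1 at 0.56. With each probe set centred on its own mean, these genes ranked between 1 and 17 for their member.

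The 6 differences were recomputed under other settings. A 2-fold call cannot be lost at 1.5-fold, by the difference of means or with an array left out. Since the members were also chosen on this contrast, their calls under these settings are no further support. The share of all genes called higher in zSP was 11.6% at 1.5-fold, 4.5% at 3-fold and 14.2% by the difference of means. It was 11.9% and 12.5% without zSP replicates 1 and 2 and 11% without either zMP replicate, where the share called higher in zMP was 6.7%, 6.35%, 6.72% and 6.05%, respectively. The share called higher in zSP was 8.44% after median centring, 7.38% after a second quantile normalization, 9.29% after cyclic loess, 7.35% with probe sets averaged, 7.78% without shared-sequence probe sets and 12.1% with a filter on low values. The differences ranged from 4.56 to 7.89 for epcam, 2.97 to 4.87 for spint2 and 4.90 to 6.63 for tm4sf4, with the ends far from the deposited value coming from averaged probe sets. Those of cd9b, lad1 and elf3 ranged from 5.55 to 5.87, 5.81 to 6.29 and 5.96 to 6.29. A filter on mean level left 5 of the 6 genes and 2849 of all genes, and lad1 did not pass it. Such a filter is passed through the bright pool, so that the 5 give no further support.

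**Figure D5:**
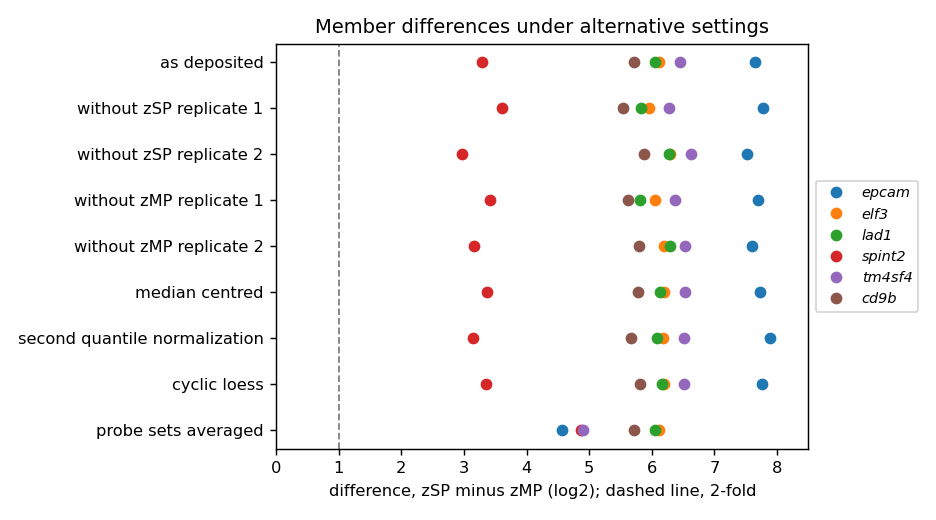
Difference between zSP and zMP on the log2 scale (x axis) of the 6 members (colours) as deposited and under 8 alternative settings (rows), with a dashed line at 2-fold. The rows resemble each other apart from the averaged probe sets, where epcam moves to 4.56, spint2 to 4.87 and tm4sf4 to 4.90.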

How the data were processed

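Per the submitters' processing notes, the deposited log2 values come from RMA and the package affy. They cover 15617 probe sets on an Affymetrix array for zebrafish. This method corrects background, quantile-normalizes probes and summarises each set. Its versions and settings are not given in the sources. RNA was amplified by 2 rounds of in vitro transcription, per the labels' protocols.

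Values were not changed further. Leaving out 115 controls gave 15502 probe sets, of which 10795 carried 1 gene in the platform annotation, 135 several and 4572 none. Symbols were updated through gene identifiers to GRCz12tu, used for names and for which genes neighbour each other. A gene with several probe sets was represented by the one of highest mean over all 4 arrays. The 2 arrays of a population repeat 1 pool, so no test was made, and a size rule, 2-fold in all 4 pairs of arrays, took its place. The small number of arrays limits the precision. The blank range was set with the control values known.

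The members and the 11 other gene lists were chosen with earlier results of these data known. From each list the text names up to 4 called genes with the largest difference, or the 2 largest where none was called, and for each member the 2 most alike genes. One called leukocyte marker is not reported here. Of the listed symbols, 189 were found directly, 4 under an older symbol, and 166 had no probe set of their own. Lists are described by counts and medians. Bounds on a fold take, per zMP array, the higher of the blank top and the probe set's own value. As alternatives, the size, the use of group means, each array left out, median centring, quantile and cyclic loess normalization with limma 3.58.1 in R 4.3.3, averaged probe sets, no shared-sequence probe sets and a filter on low values were tried.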

Additional observations from a re-analysis of the deposited data

How the results depend on the processing

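Each population was 1 RNA pool, and probe sets within the blank range give bounds only. No paired analysis was possible, because RNA of the 3 sorts was pooled within each population and the replicate numbers name aliquots of separate pools. The result comes from no test. All 6 members were called at 1.5-fold, at 3-fold, by the difference of means, with any 1 array left out and under each normalization. Of these, the calls at 1.5-fold, by the difference of means and with an array left out could not be lost. The count was 5 with the filter on low values, which removed lad1, and 5 without shared-sequence probe sets, which left none for epcam. The difference of epcam was 7.89 after a second quantile normalization. Averaging probe sets gave 4.56 for epcam, 4.87 for spint2 and 4.90 for tm4sf4. With 1 array left out it was 7.52 to 7.78 for epcam, 5.96 to 6.29 for elf3, 5.81 to 6.29 for lad1, 2.97 to 3.60 for spint2, 6.27 to 6.63 for tm4sf4 and 5.55 to 5.87 for cd9b.

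Of all 8793 genes, 690 were called higher in zSP and 254 lower, or 7.85% and 2.89%. These counts were 1017 and 849 at 1.5-fold, 396 and 61 at 3-fold, 1245 and 811 by the difference of means, 345 and 173 with the filter, 817 and 166 after cyclic loess and 742 and 207 after median centring. With 1 array left out, when only 2 pairs need to pass, they were 969 to 1097 and 532 to 591. Over the 11 lists, 51 genes other than the members were called higher and 6 lower. These counts are to be read beside those over all genes in the same setting, and the share of each list stands in its paragraph. The lower count was 19 at 1.5-fold, 3 at 3-fold, 16 by the difference of means and 8 to 14 with 1 array left out, and the higher count was 24 with the filter and 54 to 60 with 1 array left out.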

Other observations

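In the gene order of the GRCz12tu assembly, from which no coordinates are given, the protein-coding genes on either side of the 6 members numbered 12, and 1 of them had a probe set of its own. This was the cardiac troponin gene tnnt2a beside lad1, with a difference of -0.57 (-0.89 to -0.25), not called and at background in each pool. The neighbours of tm4sf4 were wwtr1, a transcriptional coactivator gene, and its family relative tm4sf18, neither of them measured. The neighbours were looked up after the members' values were known.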
